A study of Mus musculus and Rattus norvegicus with 85 samples.

Results

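The genes described here are 45 genes of lung fibroblasts and the extracellular matrix: collagens, elastic fibre proteins, the enzymes that fold and cross-link collagen, small proteoglycans, matricellular proteins, matrix proteases with their inhibitors, and the platelet-derived growth factor receptors of mesenchymal cells. Members were found by symbol, as every array probe set annotated to one of the 45 symbols and to no other gene. In the mouse 94 of 45101 probe sets belonged to 43 of the genes, and 84 probe sets of 42 genes passed a filter on low signal. In the rat 69 of 31099 probe sets belonged to 44 of the genes, and 63 probe sets of 42 genes passed it. Fbn1 and Loxl2 had no mouse probe set with that symbol alone and Thbs1 had no such rat probe set. Thbs2 was below the filter in both species and Mmp3 in the rat. Where a gene had several probe sets, the brightest stood for it.

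Chloroprene is a volatile chlorinated diene used to make synthetic rubber. Female B6C3F1/Crl mice breathed 90, 13, 2, 0.3 or 0 ppm and female F344/NCrl rats 5, 30, 90 or 200 ppm by whole-body inhalation for 6 hours a day on 5 days a week, from 10 weeks of age, and the right lung was taken after 5 or 15 exposure days. Each of the 17 groups (9 mouse, 8 rat) held 5 animals, 1 Affymetrix array per animal, so the errors below are between animals. Unexposed rats, and unexposed mice at 15 days, are not analysed here, so the lowest concentration, itself an exposure, was the reference there: 0.3 ppm in mice at 15 days and 5 ppm in rats. In these whole-lung extracts fewer cells of a type and less RNA per cell cannot be told apart.

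All 11 lung-defining markers fixed for the check, from surfactant proteins to endothelial Cldn5, passed the signal filter in both species. The label field for duration read 5 days in 9 of the mice whose titles and protocols give 15 days, including 3 of 5 at 0.3 ppm and 3 of 5 at 90 ppm. 6 mouse titles carry a letter after the animal number, and 3 rat titles (30 and 200 ppm at 5 days, 200 ppm at 15 days) do not name the tissue. RNA integrity numbers, a quality score of the extract, ran from 8.3 to 9.7 in mice and from 7.1 to 9.4 in rats, and 7 arrays have none.

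Fibroblasts secrete procollagen chains that the chaperone HSP47 (Serpinh1) helps to fold and that lysyl oxidases later cross-link into fibrils and elastic fibres. Matricellular proteins such as tenascin C and thrombospondin 1 carry little load but tune how cells attach and how TGF-beta is activated. In the healthy adult lung this matrix turns over slowly, and metalloproteinases and their TIMP inhibitors set the pace of breakdown.

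The promoters of 5 mouse members are printed because these genes stood out below: Tnc, Mmp11 and Serpinh1 were lower at 90 ppm at both times, Col3a1 was lower at 5 days, and Timp3 was higher at both. Sequences are from RefSeq (GRCm38.p6), run 5′ to 3′ on the gene's strand from 250 bases before to 50 bases after the annotated start, and capitals mark matches on either strand to TATAAA (the TATA box), CCAAT (read by NF-Y), GGGCGG (the GC box read by SP1), CAGAC (read by SMAD proteins), TGANTCA (read by AP-1) or the CArG box (read by SRF). No match printed overlaps another. The regions are chr4:64046966-64047265 (Tnc, minus strand), chr10:75932453-75932752 (Mmp11, minus), chr7:99353190-99353489 (Serpinh1, minus), chr1:45311288-45311587 (Col3a1, plus) and chr10:86300162-86300461 (Timp3, plus).
Tnc: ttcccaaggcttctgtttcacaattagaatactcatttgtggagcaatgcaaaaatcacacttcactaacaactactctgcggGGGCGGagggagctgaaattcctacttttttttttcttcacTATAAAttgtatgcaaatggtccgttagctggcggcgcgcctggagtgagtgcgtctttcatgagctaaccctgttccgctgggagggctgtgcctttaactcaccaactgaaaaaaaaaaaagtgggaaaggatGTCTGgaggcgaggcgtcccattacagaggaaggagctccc
Mmp11: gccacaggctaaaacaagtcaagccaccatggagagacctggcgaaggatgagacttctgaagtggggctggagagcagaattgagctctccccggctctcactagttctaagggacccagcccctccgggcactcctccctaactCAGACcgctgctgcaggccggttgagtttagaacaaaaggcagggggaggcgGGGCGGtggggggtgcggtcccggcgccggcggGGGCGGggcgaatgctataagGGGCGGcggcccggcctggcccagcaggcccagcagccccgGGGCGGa
Serpinh1: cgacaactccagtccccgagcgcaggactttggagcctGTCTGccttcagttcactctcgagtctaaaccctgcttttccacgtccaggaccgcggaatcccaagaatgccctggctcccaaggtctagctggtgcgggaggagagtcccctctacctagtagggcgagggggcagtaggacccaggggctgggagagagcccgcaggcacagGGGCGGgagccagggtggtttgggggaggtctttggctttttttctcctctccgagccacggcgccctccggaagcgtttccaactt
Col3a1: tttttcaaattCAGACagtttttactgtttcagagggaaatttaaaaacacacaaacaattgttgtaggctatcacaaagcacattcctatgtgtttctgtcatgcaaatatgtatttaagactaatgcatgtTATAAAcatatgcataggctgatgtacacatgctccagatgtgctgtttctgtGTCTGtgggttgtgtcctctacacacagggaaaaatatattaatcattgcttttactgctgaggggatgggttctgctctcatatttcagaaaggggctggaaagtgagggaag
Timp3: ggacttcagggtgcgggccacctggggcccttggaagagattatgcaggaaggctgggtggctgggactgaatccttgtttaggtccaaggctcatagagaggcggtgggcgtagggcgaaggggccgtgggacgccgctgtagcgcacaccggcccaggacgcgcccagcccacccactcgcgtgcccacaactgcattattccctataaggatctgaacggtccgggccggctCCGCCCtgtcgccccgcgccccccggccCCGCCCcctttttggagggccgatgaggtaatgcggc
Tnc held 1 TATAAA, 1 GGGCGG and 1 CAGAC. Mmp11 held 4 GGGCGG and 1 CAGAC, and Serpinh1 1 of each. Col3a1 held 1 TATAAA and 2 CAGAC. Timp3 held 2 GGGCGG and none of the others. Of 27025 mouse promoters of this length, 35.9% held GGGCGG, 49.7% CAGAC, 14.2% TATAAA, 37.9% CCAAT, 7.93% TGANTCA and 1.57% the CArG box. Among the 27 member promoters in the table the shares were 59.3%, 59.3%, 14.8%, 40.7%, 7.41% and 0% in that order. These are letter matches and say nothing of binding.

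The first question was how the genes in lungs of mice at the highest concentration compared with those of unexposed mice after 5 days. 9 of the 42 measured members fell and 2 rose (limma, Benjamini-Hochberg adjusted p under 0.05 over all 13796 genes), which is 26.2% of the members where 16.3% of all genes were called. Among all genes 7.35% were lower and 8.99% higher, so calls over all genes leaned up where those of the members leaned down. The members' median log2 change was -0.09 and that of all genes 0.01. The genes that fell were the matricellular Tnc, Thbs1 and Ccn5, the cross-linking enzyme Loxl1, the chaperone Serpinh1, the protease Mmp11 and the collagens Col3a1, Col5a2 and Col6a3. Those that rose were Lox and Timp3.

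Tnc encodes tenascin C, a hexameric glycoprotein made in development and wound repair. Its log2 signal was 8.59, 8.84, 8.14, 8.90 and 8.33 in the 5 unexposed mice and 7.98, 7.08, 7.25, 7.0 and 6.71 in the 5 mice at 90 ppm. Every exposed mouse was below every unexposed one, a 2.56-fold lower mean (log2 change -1.36 ± 0.23 SE, adjusted p = 4.9e-05). Group means at 0.3, 2 and 13 ppm were 8.39 ± 0.50, 8.44 ± 0.50 and 8.11 ± 0.44 (SD, n = 5) against 8.56 ± 0.32 without exposure, and these groups overlapped.

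Thbs1, thrombospondin 1, releases TGF-beta from its latent complex. Its signal was 10.31, 10.29, 10.01, 10.50 and 10.35 without exposure and 9.23, 9.88, 9.34, 9.03 and 9.29 at 90 ppm. The groups did not overlap (log2 change -0.94 ± 0.14, adjusted p = 4.5e-06). Ccn5, a CCN family member that lacks the C-terminal domain of its relatives, was 10.43, 10.41, 10.31, 10.34 and 10.39 in unexposed mice and 9.63, 9.19, 9.16, 9.05 and 9.27 at 90 ppm. All exposed values were again lower (-1.11 ± 0.20, adjusted p = 6.8e-05), and the 5 unexposed values had an SD of 0.05. Ccn2, connective tissue growth factor, is a well-known TGF-beta target. Its signal was 12.87, 12.90, 12.78, 12.91 and 13.13 in unexposed mice and 13.53, 13.36, 13.01, 13.05 and 12.90 at 90 ppm, an overlap, and its change of 0.25 ± 0.12 did not pass (adjusted p = 0.17). Fibronectin, Fn1 (0.02 ± 0.11) and periostin, Postn (-0.14 ± 0.27), did not pass either.

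**Figure D1:**
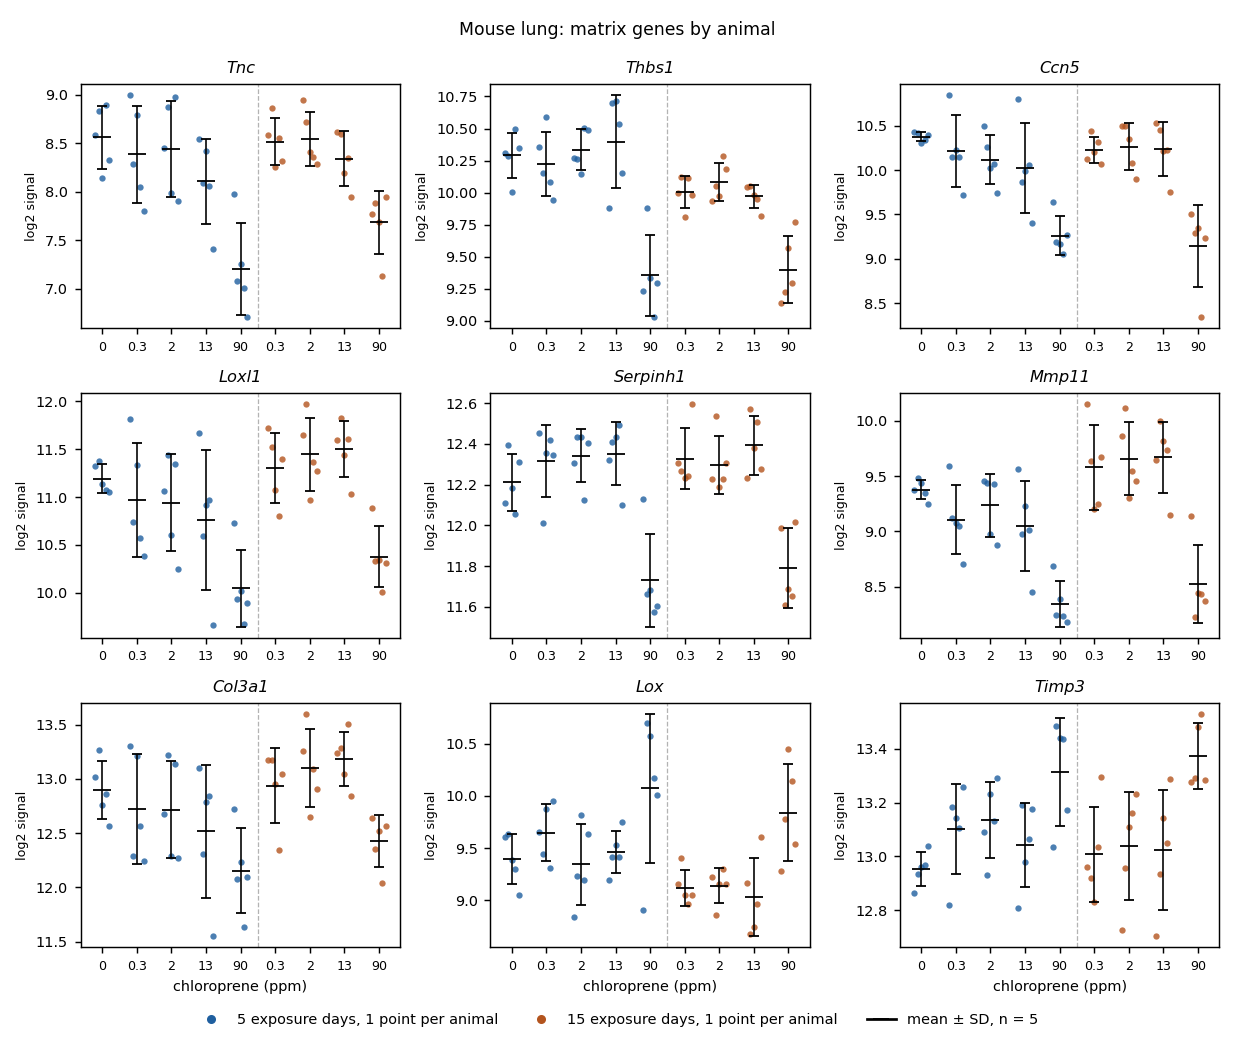
Log2 signal of 9 matrix genes in every mouse (1 point per animal; bars are the mean ± SD, n = 5) against chloroprene in ppm, 5 exposure days left of the dashed line and 15 days right of it. Tnc, Thbs1, Ccn5, Loxl1, Serpinh1 and Mmp11 sit lower at 90 ppm at both times, while the groups from 0 to 13 ppm overlap.

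The chaperone and 1 of the lysyl oxidases fell, while the other measured lysyl oxidase rose. Loxl1, which cross-links elastin, was 11.32, 11.38, 11.13, 11.07 and 11.05 without exposure and 10.73, 9.93, 10.02, 9.68 and 9.89 at 90 ppm, with no overlap (-1.14 ± 0.27, adjusted p = 0.0021). Serpinh1 was 12.11, 12.40, 12.18, 12.06 and 12.31 against 12.13, 11.66, 11.68, 11.57 and 11.60. 4 of its 5 exposed mice were below all unexposed ones (-0.48 ± 0.10, adjusted p = 0.00081). Lox, the founding lysyl oxidase of collagen and elastin, was 9.61, 9.63, 9.39, 9.30 and 9.05 without exposure and 8.90, 10.70, 10.58, 10.17 and 10.01 at 90 ppm. 4 of the 5 exposed mice were above all unexposed ones while mouse 165 lay under every unexposed mouse (0.68 ± 0.23, adjusted p = 0.032). The Lox call was lost when any 1 of 6 mice was left out (103, 104, 105, 166, 167 or 168, adjusted p up to 0.13). The same mouse 165 was also the lowest of its group for Postn (10.46) and Pdgfra (11.72).

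Among fibrillar collagens all 5 changes were below 0 and 2 passed. Col3a1, the type III chain of distensible tissue, was 13.02, 13.27, 12.76, 12.86 and 12.56 in unexposed mice and 12.72, 12.08, 12.23, 11.63 and 12.10 at 90 ppm. 4 of 5 exposed mice were below all unexposed ones (-0.74 ± 0.24, adjusted p = 0.028). Col5a2, a type V chain that regulates fibril width, was 10.85, 11.13, 10.76, 10.98 and 10.68 against 10.71, 10.51, 10.50, 10.06 and 10.48 (-0.43 ± 0.14, adjusted p = 0.033), and again 4 of 5 were lower than every reference. Type I collagen did not pass, with Col1a1 at -0.24 ± 0.31 (adjusted p = 0.69) and Col1a2 at -0.05 ± 0.15 (0.88), and the groups overlapped. Both called collagens rested on few animals. Col3a1 lost its call without mouse 101, 102, 166, 168 or 169 (adjusted p up to 0.105), and Col5a2 without 101, 102, 104 or 168 (up to 0.138). Col6a3, a chain of the beaded type VI filaments, was 11.90, 11.995, 11.71, 11.92 and 11.64 against 11.74, 11.49, 11.62, 10.92 and 11.25 (-0.43 ± 0.15, adjusted p = 0.041). Its exposed mice were mostly lower, and the call was lost without any 1 of mice 101, 102, 104, 168 and 169 (adjusted p up to 0.184).

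Proteases and inhibitors gave 1 call each. Mmp11, stromelysin 3, a metalloproteinase of remodelling stroma, was 9.38, 9.48, 9.43, 9.34 and 9.25 without exposure and 8.69, 8.24, 8.39, 8.23 and 8.18 at 90 ppm, with every exposed mouse below (-1.03 ± 0.19, adjusted p = 0.00012). Timp3, the inhibitor that binds the matrix itself, was 12.87, 12.94, 12.96, 12.97 and 13.04 against 13.03, 13.48, 13.44, 13.44 and 13.17. 4 of 5 exposed mice were above all unexposed ones (0.36 ± 0.10, adjusted p = 0.013). Timp1 (-0.19 ± 0.17, adjusted p = 0.51) did not pass.

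Other roles gave no call at 5 days. None of 4 basement membrane zone collagens (median change -0.01), 5 elastic fibre genes including Eln (-0.07 ± 0.21) or 4 small leucine-rich proteoglycans (median 0.05) was called, and neither of the 2 growth factor receptors was (Pdgfra -0.14 ± 0.10, adjusted p = 0.43). At lower concentrations no member was called at 5 days. The counts with an unadjusted p under 0.05 were 0 at 0.3 ppm, 1 at 2 ppm and 3 at 13 ppm, and 0%, 1.2% and 1.3% of all genes were called. At 13 ppm 35 of 42 members were below 0 (median -0.11, that of all genes 0.00), and mouse 154 was low for Col3a1 (11.55), Col1a1 (9.58), Tnc (7.41) and Loxl1 (9.66).

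**Figure D2:**
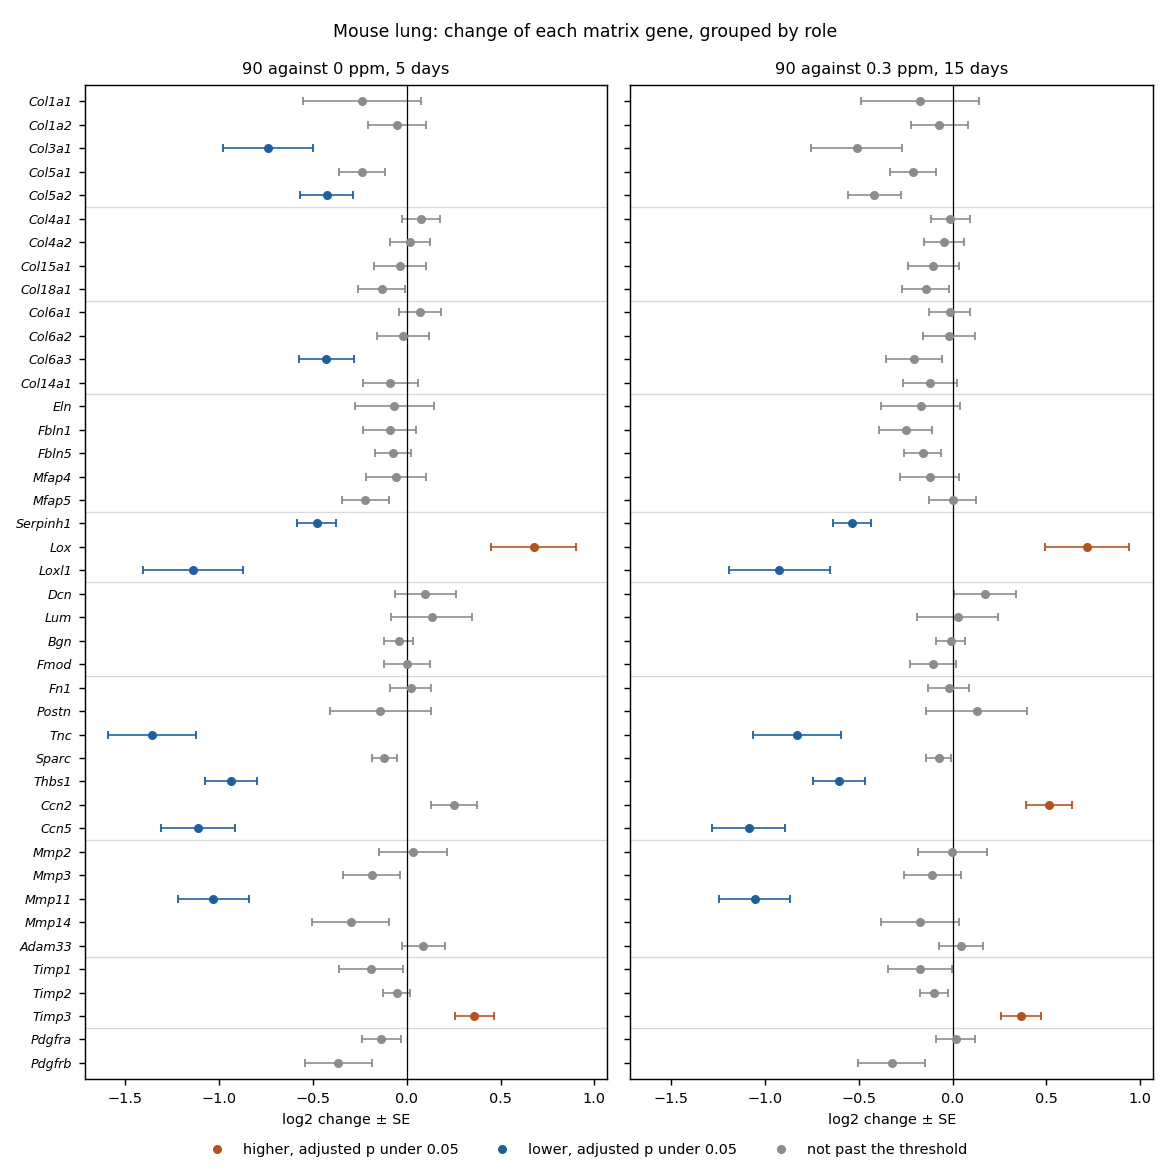
Log2 change ± SE of each of the 42 measured mouse members, grouped by role, 90 against 0 ppm at 5 days and 90 against 0.3 ppm at 15 days; colours mark adjusted p under 0.05. 11 members are called at 5 days and 9 at 15 days, most of them lower, and the changes of Col1a1, Col1a2, Eln and Fn1 lie within about 1 SE of 0.

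At 15 days, with the 0.3 ppm mice as reference, 6 members were lower and 3 higher at 90 ppm, 21.4% of the members where 7.97% of all genes were called (3.29% lower and 4.68% higher). The lower calls were Ccn5, Mmp11, Loxl1, Tnc, Thbs1 and Serpinh1, and the higher ones Lox, Ccn2 and Timp3. 8 members were called in the same direction at both times, from sets of mice that do not overlap, which is 72.7% of the 11 called at 5 days and 88.9% of the 9 called at 15 days. Over all genes 807 were called in the same direction at both times, 35.8% of the 2254 called at 5 days and 73.4% of the 1100 called at 15 days. Mmp11 was 10.15, 9.63, 9.20, 9.24 and 9.67 at 0.3 ppm and 9.14, 8.23, 8.45, 8.43 and 8.38 at 90 ppm, with no overlap (-1.05 ± 0.19, adjusted p = 0.0002). Ccn5 was 10.12, 10.44, 10.20, 10.32 and 10.07 against 9.51, 9.29, 9.34, 8.34 and 9.23, also apart (-1.09 ± 0.20, adjusted p = 0.00021). Mmp11 and Ccn5 thus ended near 2-fold lower at both times.

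Serpinh1 at 15 days was 12.31, 12.27, 12.23, 12.24 and 12.59 against 11.99, 11.61, 11.69, 11.65 and 12.02 (-0.54 ± 0.10, adjusted p = 0.0005). Thbs1 was 10.00, 10.12, 9.81, 10.11 and 9.98 against 9.14, 9.23, 9.57, 9.30 and 9.77 (-0.61 ± 0.14, adjusted p = 0.0037). Tnc was 8.59, 8.87, 8.26, 8.55 and 8.31 against 7.77, 7.88, 7.69, 7.13 and 7.94 (-0.83 ± 0.23, adjusted p = 0.020). In all of Serpinh1, Thbs1 and Tnc every mouse at 90 ppm was below every mouse at 0.3 ppm. Loxl1 was 11.71, 11.52, 11.07, 10.81 and 11.39 against 10.89, 10.33, 10.35, 10.01 and 10.31, with 4 of 5 below (-0.92 ± 0.27, adjusted p = 0.024).

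Of the genes that rose at 15 days, Ccn2 was called here and not at 5 days. It was 12.79, 12.77, 12.74, 13.16 and 12.77 at 0.3 ppm and 13.45, 13.42, 13.50, 13.08 and 13.34 at 90 ppm (0.51 ± 0.12, adjusted p = 0.0055), and 4 of 5 mice at 90 ppm were above the reference mice. Lox was 9.15, 9.40, 9.05, 8.96 and 9.05 against 9.28, 9.78, 10.45, 10.14 and 9.53 (0.72 ± 0.23, adjusted p = 0.039), with 4 of 5 higher and its call lost without 125, 127, 128, 129, 178, 179 or 180. Timp3 was 12.96, 12.92, 12.83, 13.03 and 13.29 against 13.28, 13.29, 13.48, 13.53 and 13.29 (0.37 ± 0.10, adjusted p = 0.022). Only 2 of its 5 exposed mice were above all references, and the call was lost without 125, 126, 127, 179 or 180. Tnc lost its call at 15 days without mouse 126 or 180, and Loxl1 without 125, 126 or 180.

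The collagens Col3a1 (-0.51 ± 0.24, adjusted p = 0.22), Col1a1 (-0.17 ± 0.31) and Col1a2 (-0.07 ± 0.15) did not pass at 15 days, nor did Eln (-0.17 ± 0.21), Fn1 (-0.02 ± 0.11), Postn (0.13 ± 0.27), Timp1 (-0.17 ± 0.17) or Pdgfra (0.02 ± 0.10). No member was called at 2 or 13 ppm at 15 days (1 member with an unadjusted p under 0.05 in each), where 0.109% and 0.326% of all genes were. The difference between the times in the effect of 90 against 0.3 ppm was tested directly. No member passed (0 with an unadjusted p under 0.05, 0.0435% of all genes called), and the smallest p-values were those of Ccn2 (0.33 ± 0.17, adjusted p = 0.74), Mfap5 (0.26 ± 0.18) and Pdgfra (0.20 ± 0.15). Thus a call for Ccn2 or Col3a1 at 1 time is not shown to differ from the other time.

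The 15-day counts changed when mice were left out. Without the 9 mice of conflicting duration, 4 members remained past the threshold, Ccn5 (adjusted p = 0.041), Mmp11 (0.025), Serpinh1 (0.025) and Thbs1 (0.046). That fit leaves out 3 of 5 mice at 0.3 ppm and 3 of 5 at 90 ppm. The same 4 remained without the 6 mice with lettered titles, which leaves out 2 of 5 in each of these groups. Doubtful labels and smaller groups cannot be told apart here, and these counts are not set beside those of all genes. At 5 days the count was 6 with the 0.3 ppm mice as reference, namely Tnc, Loxl1, Ccn5, Mmp11, Thbs1 and Serpinh1. It was 4 once the integrity number entered the fit (Tnc, Ccn5, Mmp11 and Thbs1), which leaves out 3 of the 5 unexposed mice for want of a number. Leaving out mouse 168 gave 7 at 5 days and leaving out mouse 180 gave 5 at 15 days.

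Different probe sets of one mouse gene did not always report the same change. For Fn1, fibronectin, the brightest probe set changed by 0.02 ± 0.11 at 5 days, but a second one was 8.63, 9.13, 8.65, 8.77 and 9.15 in unexposed mice and 7.72, 8.10, 8.36, 7.81 and 7.48 at 90 ppm. On that probe set no exposed mouse reached an unexposed one (-0.98 ± 0.19, adjusted p over all probe sets 0.00025), and at 15 days its change was -0.31 ± 0.19 (adjusted p = 0.43). Of 9 collagen genes with several kept probe sets, 6 of the 10 dimmer probe sets had a change below that of the brightest and 4 above it, and 4 of the 10 were called. Col3a1 changed by -1.34 ± 0.34 on the second probe set and by -0.74 ± 0.24 on the brightest. Col1a2 changed by -0.64 ± 0.21 (adjusted p = 0.040) on the second and by -0.05 ± 0.15 on the brightest. Col1a1 on its second probe set changed by -0.84 ± 0.33 and did not pass (adjusted p = 0.096). Col5a2 on its second probe set changed by -0.75 ± 0.15 (adjusted p = 0.00051), and Col5a1 on its second by -0.54 ± 0.17 (0.028) against -0.24 ± 0.12 on its brightest. Those of Col4a1, Col6a2, Col14a1 and Col18a1 changed by between -0.10 and 0.13 and were not called. Thus Col1a2, Col5a1 and Fn1 had a call or none depending on the probe set. Thbs1 and Serpinh1 were lower on both of theirs (-0.73 ± 0.14 for Thbs1 and -0.68 ± 0.12 for Serpinh1 on the second). The probe sets named here were picked after their values were seen.

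**Figure D3:**
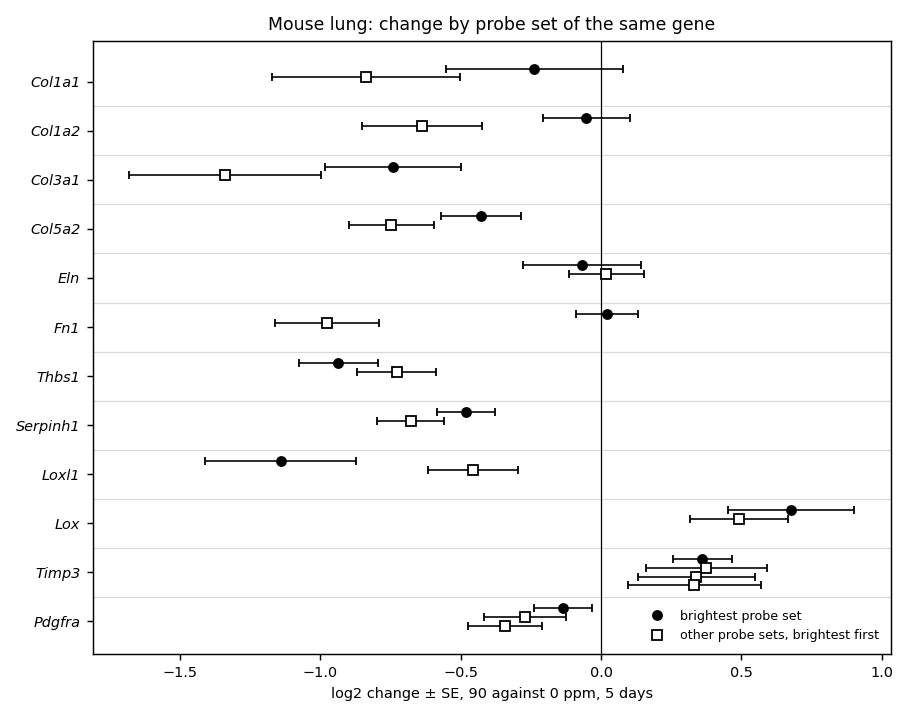
Log2 change ± SE at 90 against 0 ppm, 5 days, for every kept probe set of 12 of the mouse genes that have more than 1; filled circles are the brightest probe set and open squares the others. The second probe sets of Col1a1 and Col1a2 lie further below 0 than the brightest. That of Fn1 lies below 0 while its brightest lies near 0. Those of Timp3 and Lox lie above 0 with the brightest.

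Genes of the wider pathway, from lists of other fibroblast markers and of the TGF-beta and collagen-making machinery, were read beside the 16.3% of all genes called in mice at 5 days (7.35% lower). Of 16 fibroblast markers outside the members 6 fell and 2 rose (median log2 change -0.26). Among them Wnt2 (-1.0 ± 0.18, adjusted p = 7.6e-05), Fgfr4 (-0.82 ± 0.17) and Meox2 (-1.02 ± 0.21) fell, and Wnt2 and Fgfr4 were the 2 called at 15 days (-0.78 ± 0.18 and -0.71 ± 0.17). Of 19 TGF-beta ligands, receptors and binding proteins 3 fell and none rose, where 16.3% of all genes were called in either direction and 7.35% were lower. These were the ligands Tgfb2 (-0.75 ± 0.14, adjusted p = 0.00021) and Tgfb3 (-0.45 ± 0.14) and the activating integrin chain Itgb6 (-1.24 ± 0.28). At 15 days only the co-receptor Tgfbr3 of that list was called (0.34 ± 0.08). Of 8 TGF-beta targets outside the members only the repressor Tgif1 was called, higher at both times (0.48 ± 0.08 and 0.31 ± 0.08). Of 14 collagen-modifying enzymes Plod1, a lysyl hydroxylase, rose at 5 days (0.27 ± 0.09) and none was called at 15 days.

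No marker of mesothelium (0 of 8), heart muscle (0 of 9) or smooth muscle (0 of 9) was called in mice at 5 days, and the summed mesothelial level ran from 13.3 to 13.6 (log2) without exposure and from 13.2 to 13.6 at 90 ppm. The summed level of the 16 other fibroblast markers was 16.1 to 16.2 in unexposed mice and 15.9 to 16.0 at 90 ppm. It was also 15.9 to 16.0 at 13 ppm, 16.0 to 16.1 at 2 ppm and 16.0 to 16.2 at 0.3 ppm. At 15 days it was 15.9 to 16.1 at 90 ppm and 15.9 to 16.2 at 0.3 ppm, an overlap. Among the other lists the endothelial Kdr, the alveolar macrophage marker Siglecf, the thymus-list gene Cd8b1 and the surfactant gene Sftpa1 fell. The ciliated-cell gene Foxj1 and the cartilage-list gene Cytl1 rose. Cd8b1 was the only 1 of 5 thymus-list genes called, and the median change of that list was 0.07. The part of such cell types in the results was not tested.

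Within groups of mice, matrix genes varied together from animal to animal. Over 45 mice, deviations of Col3a1 from the group mean correlated with those of Col1a2 (Pearson r = 0.90, Spearman rho = 0.89), Col1a1 (0.83 and 0.83), Tnc (0.80 and 0.79) and Eln (0.73 and 0.77). Permuting animals within groups gave 1e-05 in each of these pairs, the smallest p the permutations can give, or 2.4e-05 for r and 3e-05 for rho after adjustment over the 12 relations. The correlations were repeated without the 2 mice farthest from the median of the other gene, chosen anew for each gene. Then r was 0.88 for Col1a2, 0.79 for Col1a1, 0.75 for Tnc and 0.70 for Eln. The correlation of Col3a1 with the RNA integrity number did not pass (r = 0.12, rho = 0.05, adjusted permutation p = 0.56 and 0.83, 40 mice). In 40 rats the correlations of Col3a1 were r = 0.65 and rho = 0.65 with Col1a2, 0.72 and 0.58 with Tnc, 0.54 and 0.47 with Col1a1 and 0.44 and 0.45 with Eln. Their adjusted permutation p-values were 2.4e-05, 0.00082, 0.014 and 0.040 for r and 7.2e-05, 0.0013, 0.012 and 0.016 for rho. Without the 2 rats farthest from the median of the other gene, r was 0.62, 0.51, 0.38 and 0.26 in that order. The relation with Eln thus rested in large part on the 2 rats farthest in Eln. In rats Col3a1 also correlated with the integrity number by rank (rho = 0.39, adjusted permutation p = 0.035; r = 0.29, adjusted p = 0.16, 38 rats) and with the 3′ minus 5′ difference of control probe sets by r (r = 0.35, adjusted permutation p = 0.040, 0.46 without the 2 farthest rats; rho = 0.31, adjusted p = 0.084, 40 rats).

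In rats the matching comparison at 5 days was 200 against 5 ppm. 6 members rose and 6 fell, 28.6% of 42 where 36.3% of all 11010 genes were called, so the share of members called was below that of all genes. Over all genes 31.6% were lower and 4.68% higher, and the median change was -0.14, against -0.00 for the members. The genes that rose were the proteoglycans Dcn and Lum, Postn, Pdgfra, Loxl2 and Col6a3. Those that fell were Eln, Col14a1, Fmod, Mmp11, Timp1 and Adam33. No fibrillar collagen was called (Col1a1 0.18 ± 0.14, Col1a2 -0.01 ± 0.11, Col3a1 -0.17 ± 0.11), nor were Fn1 (0.21 ± 0.12), Tnc (-0.29 ± 0.18) and Ccn2 (0.02 ± 0.12).

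Dcn, decorin, coats collagen fibrils and binds TGF-beta. It was 10.51, 11.14, 11.26, 11.20 and 11.72 at 5 ppm and 12.38, 12.24, 12.24, 12.12 and 12.33 at 200 ppm, with every rat at 200 ppm above the reference (1.09 ± 0.20, adjusted p = 0.00047). At 30 and 90 ppm its means were 11.54 ± 0.57 and 12.08 ± 0.13 (SD, n = 5). Lum, the related proteoglycan lumican, was 7.63, 8.41, 8.70, 8.57 and 8.57 against 9.28, 9.05, 8.73, 9.16 and 8.98 (0.66 ± 0.25, adjusted p = 0.037). The Lum groups were apart by only a little, and the call was lost without 1 of 6 rats (265, 266, 268, 269, 217 or 219). Fmod, fibromodulin, of the same family, went the other way, at 10.37, 10.03, 9.79, 10.19 and 9.62 against 9.49, 9.27, 9.34, 9.32 and 9.25 (-0.67 ± 0.13, adjusted p = 0.00089). Every rat at 200 ppm lay below every rat at 5 ppm for Fmod.

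Postn, periostin, a matricellular protein of connective tissue, was 10.56, 11.40, 11.81, 11.50 and 11.97 at 5 ppm and 12.17, 12.33, 12.05, 12.31 and 12.40 at 200 ppm, with no overlap (0.80 ± 0.27, adjusted p = 0.024). Pdgfra, the PDGF receptor of lung fibroblasts, was 10.53, 10.81, 10.62, 10.97 and 10.90 against 11.37, 11.25, 11.30, 11.48 and 11.64, also apart (0.64 ± 0.12, adjusted p = 0.00047). Rat 217 was the lowest reference rat for Dcn, Lum, Postn and Pdgfra. Without rat 217, or without rat 269, Postn was no longer called. Loxl2, a lysyl oxidase of basement membranes, was 6.32, 6.69, 6.75, 6.04 and 6.93 against 6.95, 7.22, 6.99, 6.94 and 7.38 (0.55 ± 0.18, adjusted p = 0.019), close to the filter signal of 6.65, and the call was lost without 217, 221 or 269.

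**Figure D4:**
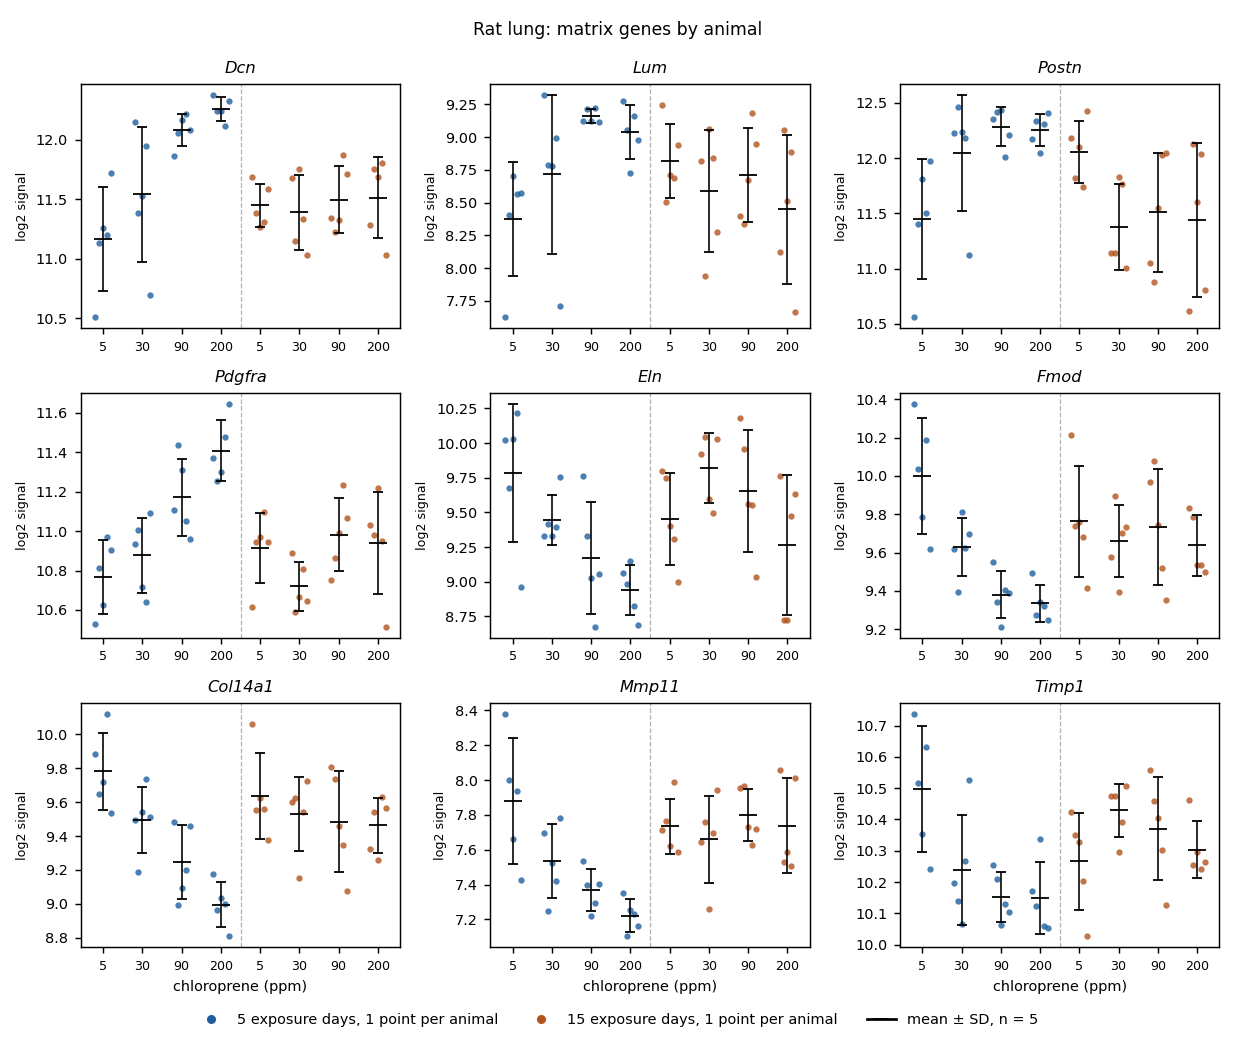
Log2 signal of 9 matrix genes in every rat (1 point per animal; bars are the mean ± SD, n = 5) against chloroprene in ppm, 5 exposure days left of the dashed line and 15 days right of it. At 5 days Dcn, Lum, Postn and Pdgfra sit higher and Fmod, Col14a1, Eln and Mmp11 lower at 90 and 200 ppm, and at 15 days the groups overlap.

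Eln, elastin, fell most among the lower genes. It was 10.02, 9.68, 10.03, 10.22 and 8.96 at 5 ppm and 9.06, 8.98, 9.15, 8.83 and 8.69 at 200 ppm (-0.84 ± 0.22, adjusted p = 0.0067). Only 2 of 5 rats were below all references, since rat 222 alone was low among these. Col14a1, a fibril-associated collagen, was 9.89, 9.65, 9.72, 10.12 and 9.53 against 9.18, 8.96, 9.03, 9.0 and 8.81 (-0.78 ± 0.14, adjusted p = 0.00031), and Mmp11 was 8.38, 8.00, 7.66, 7.94 and 7.43 against 7.35, 7.10, 7.26, 7.23 and 7.16 (-0.66 ± 0.14, adjusted p = 0.0011). Both were apart. Mmp11 was thus called lower at 5 days in both species, against 0 ppm in mice and 5 ppm in rats. Of all rat genes 31.6% were called lower. Timp1, an inducible protease inhibitor, was 10.74, 10.52, 10.35, 10.63 and 10.24 against 10.17, 10.12, 10.34, 10.06 and 10.05 (-0.35 ± 0.09, adjusted p = 0.0057). Adam33 (-0.25 ± 0.09, adjusted p = 0.036) and Col6a3 (0.34 ± 0.13, adjusted p = 0.037) were also called, and rat 222 was the lowest reference for Col6a3 at 10.74. Adam33 kept its call in 3 of 10 fits that left out 1 rat (lost without 265, 266, 269, 217, 220, 221 or 222, adjusted p up to 0.126), and Col6a3 in 5 of 10 (lost without 266, 268, 269, 217 or 222, up to 0.133). Without rat 222, Col3a1 (-0.27) and Tnc (-0.47) were called lower as well. Over all members, 12 were still called without the rats whose titles lack the tissue, 11 of them among the 12 above.

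Lox differed between its rat probe sets. The brightest changed by 0.27 ± 0.18 and did not pass, while the second, picked after its values were seen, was 7.52, 8.39, 8.27, 8.11 and 9.26 at 5 ppm and 8.87, 9.44, 9.20, 8.997 and 9.64 at 200 ppm. On the second, 1 reference rat (222) lay within the range of the exposed rats and the others lay below it (0.92 ± 0.22, adjusted p over all probe sets 0.0035).

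At 90 against 5 ppm, a comparison that shares the 5 ppm rats, 4 members were higher and 8 lower (28.6% of the members against 23.6% of all genes, split into 4.13% higher and 19.5% lower). Dcn changed by 0.91 ± 0.20, Postn by 0.84 ± 0.27, Lum by 0.79 ± 0.25 and Pdgfra by 0.40 ± 0.12, beside 1.09, 0.80, 0.66 and 0.64 at 200 ppm. Fmod changed by -0.62 ± 0.13, Eln by -0.61 ± 0.22 and Col14a1 by -0.54 ± 0.14, beside -0.67, -0.84 and -0.78. The other lower calls, chosen for mention after their values were seen, were Mmp11 (-0.51 ± 0.14), Timp1 (-0.34 ± 0.09), Fbln5 (-0.30 ± 0.11), Col15a1 (-0.29 ± 0.10) and Timp2 (-0.19 ± 0.07). None was called without rat 217 and 21 were without rat 222. With the integrity number in the fit, or with the mesothelial level, none of the 12 was called. The integrity numbers of the groups do not overlap (9.2 to 9.3 at 90 ppm, 7.3 to 8.5 at 5 ppm). Nor do the summed mesothelial levels (12.1 to 12.7 at 90 ppm, 12.8 to 13.2 at 5 ppm, log2). These fits thus cannot tell the concentration from either measure. The count was also 4 to 7 without 219, 221, 250, 251, 252 or 253. At 30 ppm no member was called (7 with an unadjusted p under 0.05, 0% of all genes called).

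Markers of other cell types moved with these rat results. Of 6 mesothelial markers above the filter 5 fell and 1 rose at 200 ppm (median -1.12, for example Upk1b -1.21 ± 0.21 and Wt1 -1.26 ± 0.22), and their summed log2 level was 12.2 to 12.4 against 12.8 to 13.2 at 5 ppm, with no overlap. Of 5 heart muscle markers 4 rose (median 1.17), with summed levels of 8.46 to 10.8 against 8.02 to 8.88. With the mean mesothelial level as a covariate, an alternative chosen after seeing the data, no member was called and 8 of all 11010 genes were. Dcn was then 0.93 ± 0.28 (adjusted p = 0.39) and Eln -0.27 ± 0.28 (0.60). Since the mesothelial sums were apart between the groups, this fit cannot tell the concentration from the mesothelial level. With the mean heart marker level as a covariate 14 members were called, 10 of the 12 among them. With the integrity number in the fit, which leaves out 1 rat at 200 ppm, 7 members were called. The heart marker and integrity counts are not set beside those of all genes. They do not show whether the members differed from all genes. The integrity number was 7.3 to 8.5 at 5 ppm, 9.2 to 9.3 at 90 ppm and 7.1 to 8.7 at 200 ppm.

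The other rat lists at 200 ppm and 5 days were read beside the 36.3% of all genes called (31.6% lower and 4.68% higher). Counting both directions, those of fibroblast markers, collagen-modifying enzymes and the TGF-beta pathway had no larger share called. Of 15 other fibroblast markers 3 rose and none fell (median 0.26, for example Itga8 0.89 ± 0.28), and their summed level was 14.8 to 14.9 against 14.5 to 14.7 at 5 ppm. Of 14 collagen-modifying enzymes 5 fell and none rose (median -0.17), among them the procollagen C-proteinase enhancer Pcolce (-0.54 ± 0.15, adjusted p = 0.0068). Of 18 TGF-beta ligands, receptors and binding proteins Tgfbr3 rose (0.47 ± 0.09) and Tgfb1 fell (-0.43 ± 0.14), and of 9 TGF-beta targets Pmepa1 fell (-0.36 ± 0.10). Of 8 smooth muscle markers Myh11 (0.76 ± 0.15) and Cnn1 (0.54 ± 0.21) rose and Smtn (-0.44 ± 0.14) fell, and of 7 endothelial markers Erg (0.94 ± 0.20) and Tek (0.38 ± 0.10) rose. The part of these cell types in the rat results was not tested.

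**Figure D5:**
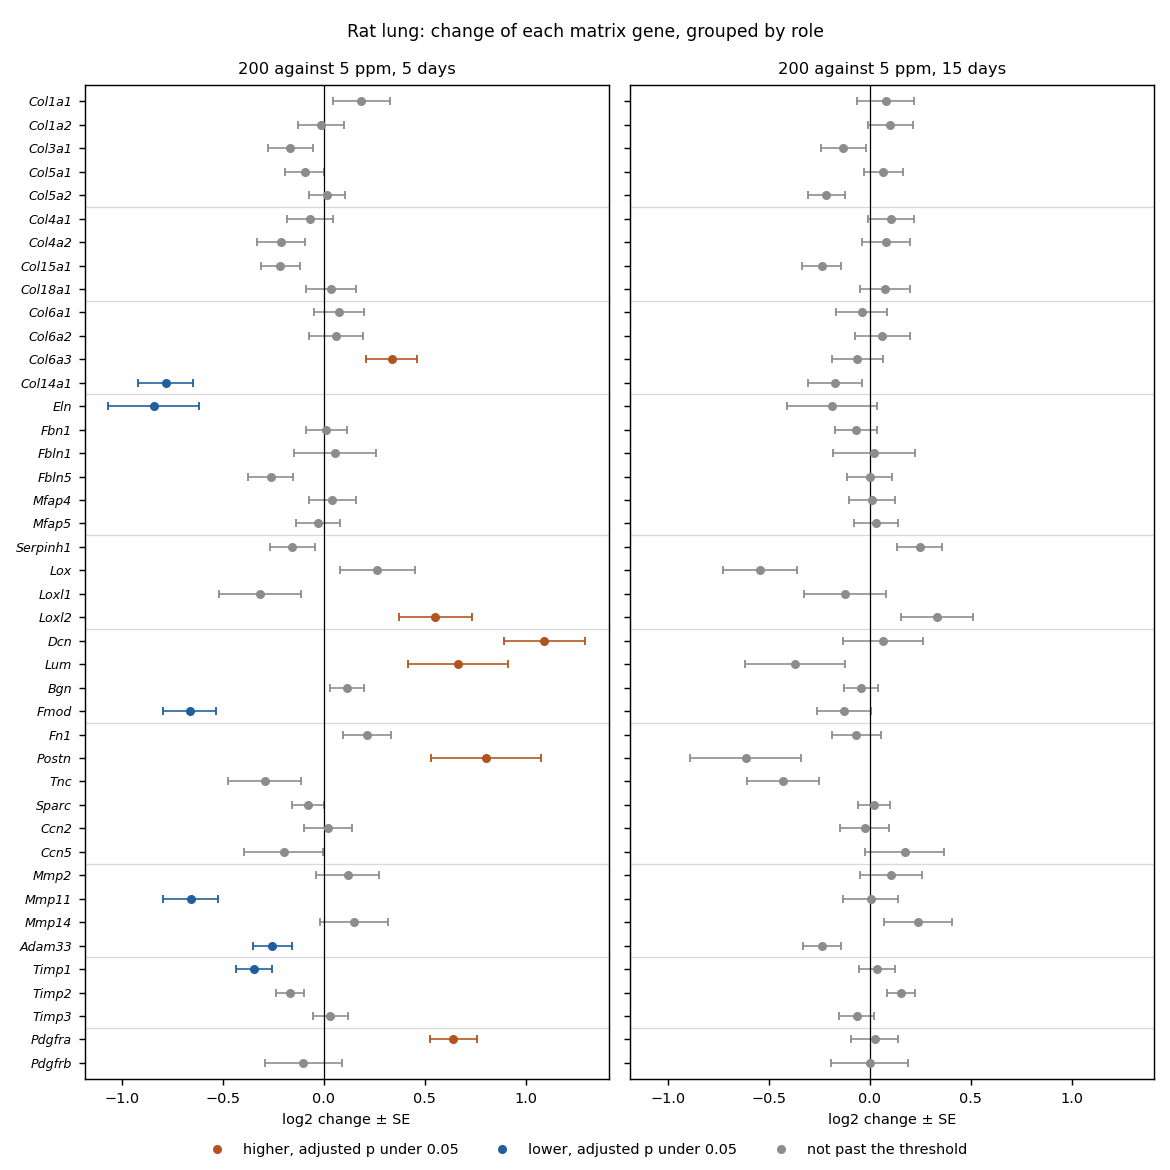
Log2 change ± SE of each of the 42 measured rat members, grouped by role, 200 against 5 ppm at 5 days and at 15 days; colours mark adjusted p under 0.05. At 5 days 6 members are called higher and 6 lower, and at 15 days none is called.

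After 15 days none of the 42 members was called at 200 against 5 ppm (8 with an unadjusted p under 0.05, 0.817% of all genes called). The smallest p-values were those of Lox (-0.54 ± 0.18, adjusted p = 0.12), Adam33 (-0.24 ± 0.09) and Col15a1 (-0.24 ± 0.10). Dcn was 11.69, 11.39, 11.27, 11.31 and 11.59 at 5 ppm and 11.28, 11.76, 11.69, 11.81 and 11.03 at 200 ppm, an overlap (0.07 ± 0.20). Postn (-0.62 ± 0.27, adjusted p = 0.23), Tnc (-0.43 ± 0.18), Eln (-0.19 ± 0.22), Pdgfra (0.03 ± 0.12), Timp1 (0.04 ± 0.09), Col1a1 (0.08 ± 0.14), Col1a2 (0.10 ± 0.11), Col3a1 (-0.13 ± 0.11), Fn1 (-0.07 ± 0.12) and Ccn2 (-0.02 ± 0.12) did not pass either. At 90 ppm Adam33, a metalloproteinase of airway mesenchyme, was the 1 call (-0.40 ± 0.09, adjusted p = 0.048), where 0.309% of all genes were called and 0.0363% were lower, and at 30 ppm there was none (8 with an unadjusted p under 0.05, 1.66% of all genes). The Adam33 call was lost without any 1 of rats 225, 227, 229, 257, 258, 259, 260 or 261. None of the mesothelial or heart muscle markers was called at 200 ppm at 15 days.

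The difference between the times in the effect of 200 against 5 ppm was called for 8 members, 4 higher and 4 lower (19.0% of the members against 11.4% of all genes, split into 8.81% higher and 2.62% lower). It was -1.42 ± 0.39 for Postn (adjusted p = 0.035), -1.03 ± 0.28 for Dcn (0.035), -0.81 ± 0.26 for Lox (0.045) and -0.62 ± 0.17 for Pdgfra (0.034). On the other side it was 0.66 ± 0.19 for Mmp11 (0.036), 0.61 ± 0.19 for Col14a1 (0.042), 0.38 ± 0.13 for Timp1 (0.047) and 0.32 ± 0.10 for Timp2 (0.040). Each of these effects was nearer 0 at 15 days or of the opposite sign. Postn was 12.18, 11.82, 12.10, 11.74 and 12.43 at 5 ppm and 10.62, 12.13, 11.61, 12.04 and 10.80 at 200 ppm at 15 days, with the lowest 2 from rats 277 and 282. Lox was lowest in the same rats, 8.53 and 8.57, among 9.45, 9.35 and 9.56, against 9.80, 9.52, 9.85, 9.37 and 9.65 at 5 ppm. The count of 8 was not stable. It was 0 without any 1 of rats 277, 282, 266, 269, 225, 227, 229, 217, 219 and 221, 4 without 265 or 268, and 13 without 222, and it was 0 with the mesothelial level, the integrity number or the 3′ minus 5′ difference of control probe sets as a covariate. 4 of 6 mesothelial markers also differed between the times, all of them higher.

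Between 15 and 5 days at a fixed concentration no member was called in either species, at 0.3 and 90 ppm in mice (4 and 2 with an unadjusted p under 0.05, 0% and 0.123% of all genes called) and at 5 and 200 ppm in rats (3 and 11, 0% and 0.127%). In rats at 200 ppm Pdgfra (-0.47 ± 0.12), Mmp11 (0.52 ± 0.14) and Dcn (-0.75 ± 0.20) had an adjusted p of 0.050, just outside the threshold. That count was 8 without rat 279 or 281 and 5 without rat 267.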

How the data were processed

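Members, gene lists and comparisons were chosen with earlier results of these data known. Right-lung RNA (Trizol and RNeasy, per the labels' protocols) was read on Affymetrix whole-genome expression arrays for mouse and rat. The deposited values are log2 signals made by the authors. Array medians were 7.27 to 7.37 in mice and 7.25 to 7.32 in rats. The summarization and normalization methods are not given in the sources used here. Probe sets were named from GEO's platform annotation. Mouse symbols were updated through RefSeq, while rat symbols were kept apart from older symbols of members. Of 45101 mouse and 31099 rat probe sets 34945 and 20826 had 1 symbol, 932 and 436 several and 9211 and 9831 none.

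Probe sets entered if at least 5 arrays exceeded a signal of 6.67 in mice or 6.65 in rats (the 40th percentile of all values in a species), and the one of highest mean stood for a gene. Each species was fitted with limma 3.58.1 (R 4.3.3), 1 mean per group over 45 mouse or 40 rat arrays, with two-sided tests and a threshold of 0.05 on Benjamini-Hochberg adjusted p across every gene tested. A called gene is one past that threshold. Members were named where called in the highest-concentration comparisons or time differences (the 3 smallest p-values where none was), plus 10 fixed genes. Correlations used 100000 two-sided permutations within groups. No depth applies to arrays, and 5 animals a group limit the precision.

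Data were simulated from each gene's real mean and SD, with noise independent between genes and 200 genes changed. In the mouse 90 against 0 ppm comparison at 5 days (13796 genes) the fit recovered 79% of log2 changes of 0.5 and 99% of 1. In the rat 200 against 5 ppm comparison at 5 days (11010 genes) it recovered 68.5% and 94.5%. Unchanged genes called were 5 and 8 in the mouse and 9 and 12 in the rat. Real genes varied together between animals, which the simulation leaves out. Alternatives covered the filter, normalization, probe sets per gene, RNA quality, marker covariates, doubtful labels and each animal left out in turn.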

Additional observations from a re-analysis of the deposited data

Results flagged for a closer look

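Groups of 5 animals were tested for each called member, so the same animals entered several times and the groups were not independent. In 9 of 86 such groups 1 animal lay far from the other 4, where chance gives about 1 in 20 for independent groups. Among mice these were the highest Serpinh1 at 90 ppm, 5 days (12.13, mouse 165), the highest Serpinh1 (12.59, mouse 129) and Ccn2 (13.16, mouse 128) at 0.3 ppm, 15 days, and the lowest Ccn5 (8.34, mouse 180) and highest Mmp11 (9.14, mouse 177) at 90 ppm, 15 days. Among rats they were the lowest Col6a3 (10.74, rat 222), Lum (7.63, rat 217) and Lox (8.83, rat 217) at 5 ppm, 5 days, and the highest Timp1 at 200 ppm, 15 days (10.46, rat 277).

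The effect of 200 against 5 ppm in rats differed between 15 and 5 days for 8 members by a direct test. That was 19.0% of the members, where 11.4% of all genes were called. The count was not stable, at 0 to 13 when 1 animal was left out. No member was called with the mesothelial level, the integrity number or the 3′ minus 5′ difference as a covariate. The differences on the log2 scale were -1.42 for Postn, -1.03 for Dcn, -0.81 for Lox, -0.62 for Pdgfra, 0.32 for Timp2, 0.38 for Timp1, 0.61 for Col14a1 and 0.66 for Mmp11.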

How the results depend on the processing

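No paired analysis was possible because animal numbers are not shared between groups. Under settings other than leaving out an animal, comparisons with at least 1 called member kept a count within 1.5 times the main one in 48 of 67 cases, those with none stayed at 0 in 127 of 134, and 475 of 605 changes of called members stayed called, with none reversed. The 5-day mouse count of 11 at 90 against 0 ppm was 6 against the 0.3 ppm mice, 7 with arrays of the same exposure time alone and 4 with the RNA integrity number. The 15-day count of 9 was 4 without the lettered mice and 4 without the mice of conflicting duration, and mouse 15 against 5 days at 0.3 ppm was 1 without the latter. The rat count of 12 at 200 ppm and 5 days was 0 with the mesothelial level and 7 with the integrity number, and that of 12 at 90 ppm was 0 with either. The rat time difference of 8 was 0 with the mesothelial level, the integrity number or the 3′ minus 5′ difference, and 0 without the rats whose title lacks the tissue. Without those rats, 30 against 5 ppm gave 6 at 5 days and 3 at 15 days and 90 against 5 ppm at 15 days gave 2. The latter was 0 with the 3′ minus 5′ difference, the integrity number, quantile normalization, arrays of the same time alone or a robust variance trend. Rat 15 against 5 days at 200 ppm gave 4 with the filter at the 60th percentile, 3 with quantile normalization and 3 with a robust variance trend, and 200 against 5 ppm at 15 days gave 1 with the mean of all probe sets. Mouse Fn1 at 5 days turned from 0.02 to -0.48 (adjusted p = 0.0048) with the mean of its probe sets, which includes the second one described above. Causes of the other shifts were not tested.

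Leaving out 1 animal gave 7 to 11 for mouse 90 against 0 ppm at 5 days and 5 to 10 for 90 against 0.3 ppm at 15 days, 0 to 1 for 13 against 0 ppm (1 without mouse 149) and for 15 against 5 days at 0.3 ppm (1 without 128) and 90 ppm (1 without 179), and 0 in the other mouse comparisons. In rats it gave 0 to 21 for 90 ppm and 7 to 17 for 200 ppm at 5 days (7 without 217 or 269), 0 to 2 for 30 ppm at 5 days (2 without 239) and at 15 days (2 without 226, 1 without 228), 0 to 1 for 90 ppm at 15 days, 0 to 13 for the time difference, 0 to 8 for 15 against 5 days at 200 ppm, and 0 in the remaining comparisons. 5 animals a group limit the precision, and unexposed rats are not analysed here.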
